A study of Petromyzon marinus with 17 samples.

Results

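NMIs found in sperm alone are stretches of the sea lamprey genome called as non-methylated DNA in both sperm replicates. No other tissue had a call there that was common to both of its replicates. A non-methylated island (NMI) is a peak in a BioCAP library, and an NMI common to both replicates of a tissue was counted for that tissue. The NMIs of 6 tissues were joined into 166793 merged NMIs, and of these 8881 were present in sperm and absent from embryos of day 1 and day 2, brain, muscle and PBMCs (mononuclear cells of the blood). They are 5.32% of merged NMIs, 7.60% of the 116821 merged NMIs present in sperm, and cover 2.83 Mb of 115 Mb. Brain alone held 9601 merged NMIs (5.76%) and muscle alone 9111 (5.46%), so a set of this size was not particular to sperm.

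BioCAP captures sonicated DNA with a CxxC zinc finger taken from the human protein KDM2B, a domain that recognises CpG sites without a methyl group. The libraries came from sea lamprey (Petromyzon marinus): adult sperm, brain, muscle and PBMCs, embryos of day 1, and embryos of day 2, which is before the zygotic genome is switched on. Each tissue had 2 replicates, 12 libraries in all, described by the study as biological replicates. Brain and muscle were each taken from 1 male and 1 female, without saying which replicate is which, and the PBMCs from separate males. For sperm and embryos, the sources used here do not say whether replicates came from separate animals or clutches. Sperm was the only germline sample, so NMIs of the egg were not measured.

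In most vertebrate genomes, most CpG sites are methylated and CpG-rich stretches escape, often at promoters, where the lack of methylation is compatible with transcription. In the sea lamprey, the study reports intermediate methylation at most CpG sites, unlike in other vertebrates. Sperm DNA carries the paternal methylation pattern into the embryo. Lampreys also cut germline-restricted DNA out of the genome of their somatic cells during early development, a process called programmed genome rearrangement. The study reports that the sequences it classed as eliminated were hypermethylated in sperm, with depleted BioCAP signal. In such DNA, a peak seen in sperm and missing from a somatic tissue can reflect absence of the sequence or its methylation. A missed call is also possible, and peak lists cannot tell these apart.

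The sperm-alone NMIs were narrow. Their median width was 297 bp, with 5% under 229 bp and 5% over 482 bp, beside a median of 506 bp over all merged NMIs and 640 bp over the other NMIs present in sperm. Brain-alone and muscle-alone NMIs were as narrow, with medians of 272 bp and 288 bp. A region found in 1 tissue alone is a stretch shared by its replicates, whereas other merged NMIs can join such stretches of several tissues. The rule thus favours a narrow width. As listed in sperm, the NMIs at the sperm-alone regions had median widths of 324 bp in replicate 1 and 332 bp in replicate 2. The medians of the whole lists were 524 bp and 475 bp. Of the 8881, 372 reached 500 bp and 10 reached 1000 bp.

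Enrichment in sperm was low. The median fold enrichment over the local background was 4.63 in sperm replicate 1 and 5.72 in sperm replicate 2 (5.17 ± 0.772, SD, n = 2), whereas the medians over the whole lists were 12.1 and 11.4. The median of the sperm-alone NMIs thus lay above 13.3% of the NMIs of the replicate 1 list and above 23.0% of the replicate 2 list. A fold above the list's median was reached by 312 (3.51%) in replicate 1 and 544 (6.13%) in replicate 2. The lower fold of the 2 replicates had a median of 4.45, and 314 sperm-alone NMIs had a lower fold of 10 or more. A low rank was not particular to sperm. In the lists of their own tissue, the median of brain-alone NMIs lay above 15.4% and 25.1%, and that of muscle-alone NMIs above 24.8% and 23.7%. These values come from the lists that chose the regions and are a description, with no test.

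The depth behind these values could be recovered, since fold and p-value of an NMI give back a whole number of fragments over its summit in both sperm lists. The median sperm-alone NMI had 30 fragments over a background of 5.39 in replicate 1 and 39 fragments over a background of 5.65 in replicate 2. Both whole lists had a median of 81 fragments, and their backgrounds were 5.40 and 5.75. At the median, the sperm-alone NMIs thus differed from the whole lists in the height of the peak and little in the background beneath it. A q-value, the p-value adjusted within its list, is given as −log10, and its median was 11.2 and 18.1 for sperm-alone NMIs against 60.8 and 58.7 for the lists.

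The 2 sperm replicates ranked these NMIs less alike than they ranked the others. Across the 8881 regions, the fold of both replicates had a Pearson r of 0.61 on the log2 scale and a Spearman rho of 0.658, while the other 107940 NMIs of sperm had values of 0.93 and 0.937. Regions are not independent replicates, and a narrower range of folds lowers a correlation. The fold was higher in replicate 2 for 74.1% of sperm-alone NMIs, with a median ratio of 1.20, and for 57.0% of other sperm NMIs, with a median ratio of 1.04. Summits of the 2 replicates lay 28 bp apart at the median, against 20 bp for other sperm NMIs.

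**Figure D1:**
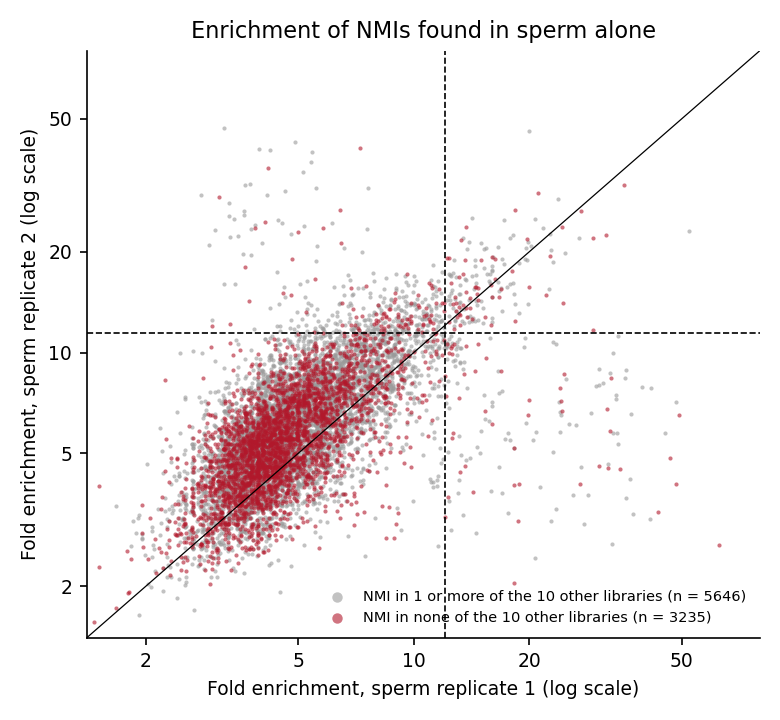
Fold enrichment of the 8881 sperm-alone NMIs in sperm replicate 1 (x axis) and sperm replicate 2 (y axis), both on log scales. Each point is 1 region, red where none of the 10 other libraries had an NMI (3235) and grey otherwise. Dashed lines mark the medians of the whole lists (12.1 and 11.4) and the solid line equal fold, and most points sit below both medians and above the line.

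Some points lay far from the line. In 162 regions (1.82%), the fold differed more than 3 times between sperm replicates, 88 times with replicate 1 higher and 74 times with replicate 2 higher. The NMI of the higher replicate was broad, 1262.5 bp at the median, whereas that of the other replicate was 310.5 bp, and their summits were 665 bp apart. In 151 of the 162, an NMI of at least 1 sperm replicate also spanned another merged NMI. In all, 452 sperm-alone NMIs (5.09%) were of this kind, lying at a median gap of 176 bp from another merged NMI with which an NMI of a sperm replicate joined them. For 8344 (94.0%), both summits lay inside the region and neither NMI reached another merged NMI. Over these the median folds were 4.61 and 5.73, and the correlation of the replicates was higher (r = 0.75, rho = 0.709).

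At the edge of the rule, the shortest stretch shared by the sperm replicates was 8 bp, and 2 sperm-alone NMIs had a shared stretch under 50 bp, with a median lower fold of 3.37. Just outside the rule, 9304 merged NMIs were present in sperm and 1 other tissue. Their median lower fold was 5.22. The other tissue was day 1 for 4336 and day 2 for 282, brain for 1915, muscle for 2049 and PBMCs for 722. The other tissue covered under 50 bp, down to 3 bp, in 15 of them, whose median lower fold was 4.26.

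Absence from a tissue means that no base was common to both of its replicates, so a call in 1 replicate could remain. Of the sperm-alone NMIs, 3235 (36.4%) overlapped no NMI in any of the 10 other libraries. Over all merged NMIs this share was 1.94%, and by the rule it holds the same 3235 regions, so nothing is read from the difference. A further 3350 had an NMI in 1 other library, 1638 in 2, 541 in 3, 107 in 4 and 10 in 5. For these counts, the shares over all merged NMIs are not given here, and nothing is read from them. Brain-alone and muscle-alone NMIs were missing from all 10 libraries of other tissues in 53.4% and 61.1% of cases.

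The calls in other libraries were uneven. Day 1 replicate 1 had an NMI at 2423 sperm-alone NMIs (27.3%, beside 62.2% of all merged NMIs) and day 1 replicate 2 at 1655 (18.6%, beside 62.0%). The day 2 replicates had 489 (5.51%, beside 47.6%) and 517 (5.82%, beside 48.0%). Brain replicate 1 had 188 (2.12%, beside 76.8%), whereas brain replicate 2 had 1844 (20.8%, beside 82.0%). Brain replicate 2 had the longer list (141921 NMIs against 130672), and the study lists more read pairs for it. The brain replicates differ in sex as well as in library, as do the muscle replicates. The part of sex, depth or library was not tested. The muscle replicates had 395 (4.45%, beside 76.6%) and 542 (6.10%, beside 76.8%), and the PBMC replicates 187 (2.11%, beside 62.7%) and 487 (5.48%, beside 64.7%). Every library was thus below its share of all merged NMIs, which the rule favours, and both day 1 libraries and brain replicate 2 held most of the calls.

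**Figure D2:**
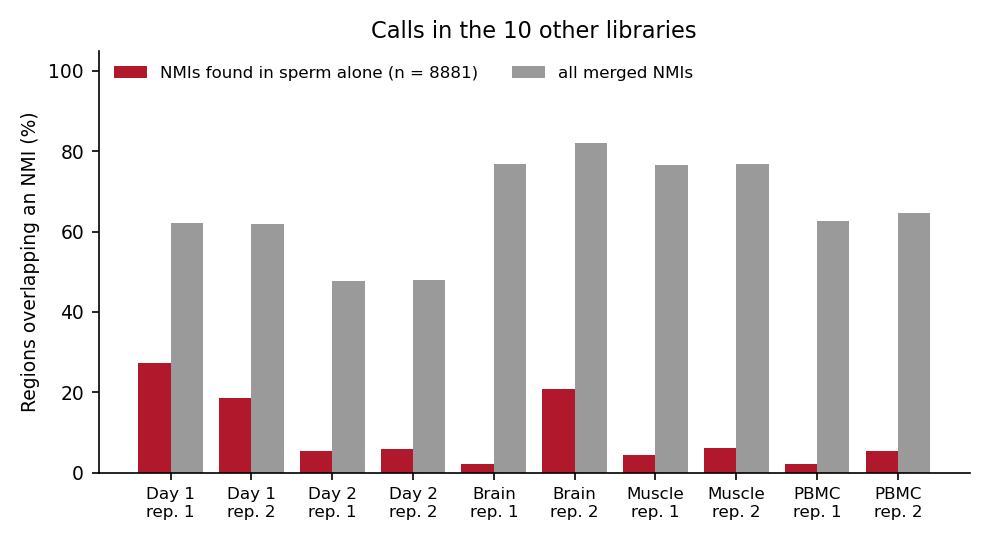
Percentage of regions that overlap an NMI (y axis) in each of the 10 libraries other than sperm (x axis), red for the 8881 sperm-alone NMIs and grey for all 166793 merged NMIs. The red bars of day 1 replicate 1 (27.3%), brain replicate 2 (20.8%) and day 1 replicate 2 (18.6%) are the highest, and the 7 others lie between 2.11% and 6.10%.

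Taken by stage, 4349 sperm-alone NMIs (49.0%) had an NMI in at least 1 of 4 embryo libraries, beside 69.7% of all merged NMIs, and 2832 (31.9%) in at least 1 of 6 brain, muscle and PBMC libraries, beside 92.6%. Embryo libraries only were involved at 2814, adult libraries only at 1297 and both at 1535. By the rule, such calls have no base common to both replicates of their tissue. The matching shares of all merged NMIs are not given here, so nothing is read from this split. The calls elsewhere were weak in their own lists. In day 1 replicate 1 their median fold was 4.91, above 17.8% of that list, and in brain replicate 2 it was 3.41, above 13.9%. In the 8 other libraries, the median fold of the calls lay above 7.65% to 15.0% of the list.

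The share of sperm NMIs found in sperm alone fell with the fold in sperm. Sperm alone held 32.5% of the 9830 sperm NMIs with a lower fold of 4 or less, 16.2% of the 30671 above 4 and up to 8, and 0.941% of the 76320 above 8. Only 14 of the 31683 sperm NMIs with a lower fold above 20 were sperm-alone. Among the sperm-alone NMIs, the share with a call in an embryo library was 41.3% at a lower fold of 4 or less, 51.6% above 4 and up to 8, and 64.6% above 8. The share with a call in an adult library was 31.9%, 32.4% and 28.3% in the same classes. Over all sperm NMIs of these classes, 63.6%, 79.9% and 98.6% had a call in an embryo library and 70.6%, 82.8% and 96.6% in an adult library. The rule keeps only regions without a base common to both replicates of another tissue, so nothing is read from the shares among sperm-alone NMIs. The folds come from the sperm lists that chose the regions, so the fall with fold is a description, with no test. A merged NMI with several NMIs in a sperm list took the one with the largest −log10 q, whereas each sperm-alone NMI had only 1.

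**Figure D3:**
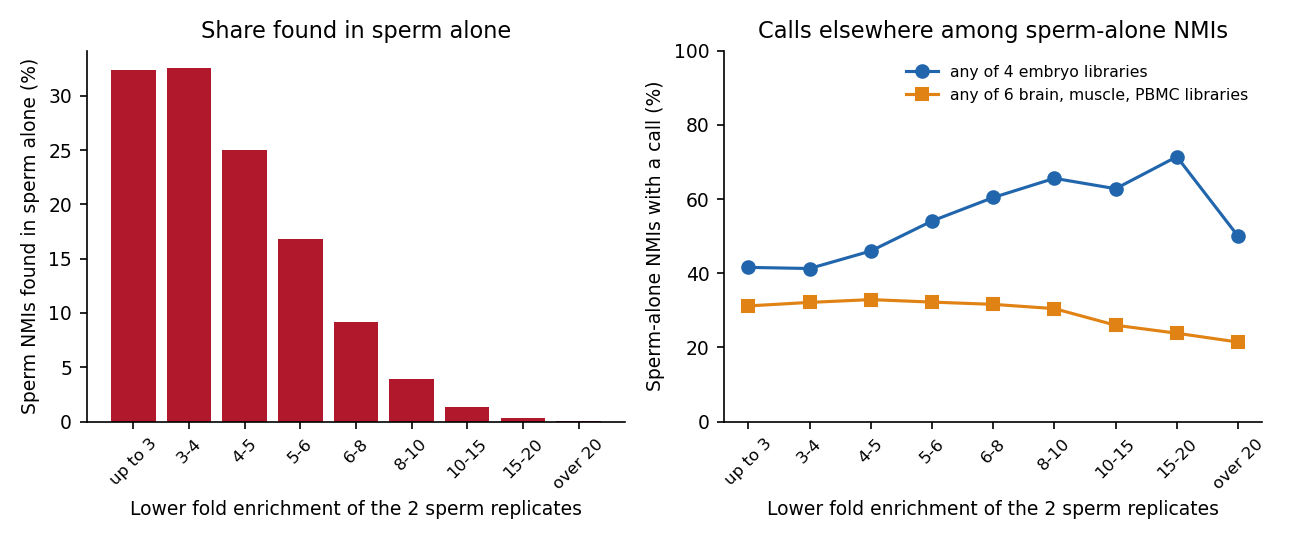
Left, percentage of sperm NMIs that are sperm-alone (y axis) by the lower fold of both sperm replicates (x axis), falling from 32.4% at a fold up to 3 to 0.0442% above 20. Right, percentage of the sperm-alone NMIs in each class with an NMI in any of 4 embryo libraries (blue) or any of 6 brain, muscle and PBMC libraries (orange), where blue lies above orange in every class, and the last class holds 14 regions.

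Recovered backgrounds were lower in the embryo lists than in sperm. Their medians were 0.932 and 0.903 fragments in the day 1 lists and 0.695 and 0.783 in the day 2 lists. The median NMI had 15 fragments in both day 1 lists, and 14 and 15 in the day 2 lists, and the lowest NMI had 3 in each. Brain replicate 1 was closer to sperm, with a median background of 5.09 fragments and a median of 46 fragments per NMI. The fragments of the 5 other lists (brain replicate 2, muscle and PBMC) could not be recovered, so the fragments behind their NMIs are unknown here. The study lists read pairs for every library, which were not analysed here. It also lists lower shares of unique reads in the embryo libraries than in sperm. The part of depth in the absence of an NMI from a tissue was not tested.

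Replicates that took no part in a choice gave a measure from other libraries of the same tissues. Sperm-alone NMIs chosen in the 6 lists of replicate 1 numbered 6010, and 92.2% of them overlapped an NMI of sperm replicate 2. The shares were 23.0% in day 1 replicate 2, 18.5% in brain replicate 2, 5.27% in PBMC replicate 2, 4.88% in muscle replicate 2 and 4.83% in day 2 replicate 2 (mean of the 5 other tissues 11.3 ± 8.78%, SD, n = 5). Of all merged NMIs of the replicate 1 lists, 71.4% were found in sperm replicate 2, 78.0% in brain, 73.0% in muscle, 61.5% in PBMC, 58.8% in day 1 and 45.6% in day 2. With the replicates exchanged, 11323 were chosen, and 44.1% of them overlapped an NMI of sperm replicate 1. The shares were 21.9% in day 1, 2.83% in muscle, 2.39% in day 2, 1.81% in brain and 1.32% in PBMC (mean 6.04 ± 8.86%, SD, n = 5). Of all merged NMIs of the replicate 2 lists, 62.9% were found in sperm replicate 1, 68.8% in muscle, 67.9% in brain, 56.4% in day 1, 56.2% in PBMC and 42.8% in day 2. The sperm-alone share found again in sperm was thus above that of all merged NMIs in replicate 2 and below it in replicate 1. Sperm was the highest of 6 libraries in both directions, by 80.9 and 38.1 percentage points over the mean of the others. An exact permutation test over the 6 libraries, one-sided, gave p = 0.167 in each direction (0.167 after Benjamini-Hochberg adjustment over both), which is the smallest p that 1 library against 5 allows. The regions were chosen as called in sperm and not in the other tissues, so agreement between replicates alone favours sperm as the highest. No conclusion is drawn from the rank or the p-value.

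**Figure D4:**
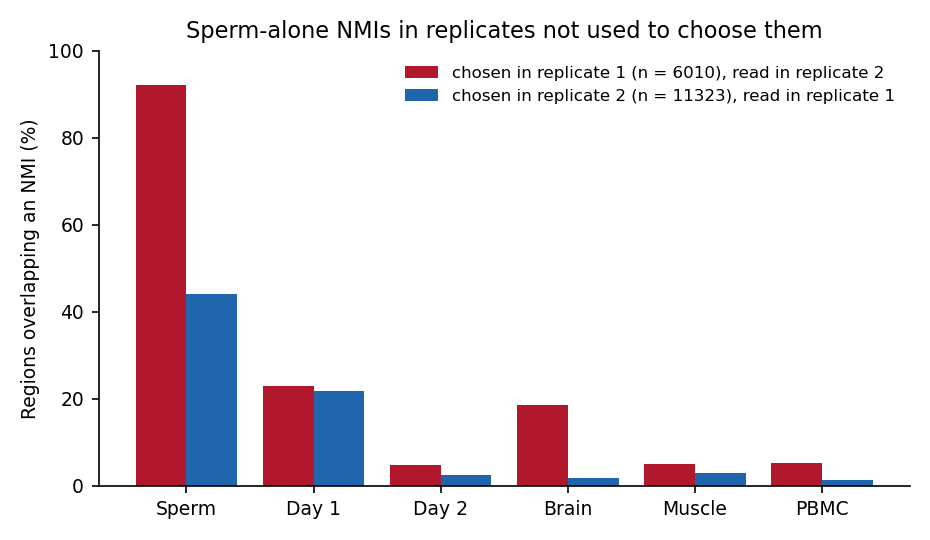
Percentage of sperm-alone NMIs chosen in 1 replicate of each tissue that overlap an NMI in the replicate not used (y axis), by tissue (x axis), red for 6010 chosen in replicate 1 and blue for 11323 chosen in replicate 2. Sperm is highest in both directions (92.2% and 44.1%), followed by day 1 (23.0% and 21.9%), and brain is 18.5% in replicate 2 and 1.81% in replicate 1.

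The highest fold among sperm-alone NMIs without a call in any other library was on scaffold PIZI01000037v1 (petMar3 assembly, 5062377 to 5063099, 723 bp). It had a fold of 35.3 in sperm replicate 1 and 31.7 in replicate 2, from 165 fragments (95% Poisson interval 141 to 192) over a background of 3.70 and 155 fragments (132 to 181) over 3.93. The nearest NMI of any other library was 635 bp away. Its nearest merged NMI, 480 bp away, was present in sperm, day 1, day 2, brain and PBMCs. The intervals given here cover counting error only. Genes and sequence at these positions were not analysed here.

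The next 4 by fold were spread over 4 scaffolds. The NMI on PIZI01000055v1 (4939038 to 4939943) had folds of 27.4 and 26.5, with 131 and 133 fragments. The NMI on PIZI01000072v1 (2518416 to 2518969) had folds of 24.4 and 23.7, with 147 and 151 fragments, and stood by itself, 22648 bp from the nearest NMI of any other library. The NMI on PIZI01000065v1 (1194771 to 1195293) differed more between replicates, with folds of 31.8 and 22.4, and was 4263 bp from any other NMI of another library. The NMI on PIZI01000024v1 (7679989 to 7680806) had folds of 29.3 and 22.0 and the most fragments of these, 216 and 180. It lay 146 bp from an NMI of another library, and its nearest merged NMI, 308 bp away, was present in all 6 tissues. By −log10 q, the PIZI01000037v1, PIZI01000055v1, PIZI01000072v1 and PIZI01000024v1 regions were again among the top 5, together with an NMI on PIZI01000029v1 (2100407 to 2101016) with folds of 19.8 and 21.9 and 171 and 184 fragments. All 6 regions had both summits within 17 bp of each other, and their values in both sperm replicates were above the medians of the lists.

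The longest sperm-alone NMI was on PIZI01000011v1 (14749484 to 14751267, 1784 bp), with 128 and 126 fragments over backgrounds of 9.24 and 11.2 and folds of 12.6 and 10.4. No other library had an NMI in it, and the nearest was 3394 bp away. Sperm replicate 1 joined it with another sperm NMI 161 bp away into a peak of 2376 bp. Of the next 4 in length, the NMI on PIZI01000040v1 (9628273 to 9629363, folds 5.80 and 7.43) was also without a call elsewhere. The other 3 each had calls in 2 or 3 other libraries. That on PIZI01005413v1 (6118 to 7427, folds 11.8 and 11.3) had calls in day 1 replicate 2, day 2 replicate 2 and PBMC replicate 1. That on PIZI01000053v1 (590197 to 591472, folds 8.64 and 7.97) had calls in day 1 replicate 1, brain replicate 2 and PBMC replicate 2. That on PIZI01000044v1 (5524475 to 5525674, folds 17.0 and 19.1) had calls in day 1 replicate 1 and brain replicate 1. For 3 of the 5 (those on PIZI01005413v1, PIZI01000053v1 and PIZI01000040v1), the folds of both sperm replicates were below the medians of the lists.

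Most neighbours of sperm-alone NMIs were NMIs of other kinds, which the small size of the set favours (5.32% of merged NMIs). The median gap to the nearest merged NMI was 1058 bp (5% to 95%, 184 to 10334 bp), beside 915 bp over all merged NMIs, 717 bp for brain-alone and 1698 bp for muscle-alone NMIs. The nearest NMI was itself sperm-alone for 9.92%, whereas for other sperm NMIs it was sperm-alone in 5.93%. Brain-alone NMIs had another brain-alone NMI next to them in 11.8% of cases and muscle-alone NMIs another muscle-alone NMI in 18.3%. The neighbour of a sperm-alone NMI was present in sperm in 83.7% of cases, beside 70.7% over all merged NMIs, and in day 1 in 64.2%, beside 56.6%. It was present in brain in 68.5%, beside 76.3%, in muscle in 68.2%, beside 74.0%, and in PBMCs in 55.0%, beside 60.7%. A neighbour common to all 6 tissues was about as frequent (33.7%) as over all merged NMIs (33.1%). For other sperm NMIs, the neighbour was present in sperm in 81.0% and in day 1 in 65.0% of cases, close to the shares for sperm-alone NMIs. Their neighbour was present in brain in 77.9%, in muscle in 74.2%, in PBMCs in 62.4% and in all 6 tissues in 38.7%. These shares are descriptions over regions, which share libraries.

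In order along the scaffolds, 7448 sperm-alone NMIs stood singly, and 1433 (16.1%) were in runs of 2 or more. There were 623 runs of 2, 53 of 3 and 7 of 4. The tightest run of 4 spanned 2982 bp on PIZI01000006v1 (19647970 to 19650951). Its folds in sperm replicate 1 were 13.0, 6.23, 9.36 and 4.35 in order, and in replicate 2 they were 10.5, 6.05, 9.22 and 5.35. The first had calls in day 1 replicate 2, day 2 replicate 1 and muscle replicate 1, the second had none, the third a call in muscle replicate 1 and the fourth a call in brain replicate 2. Sperm-alone NMIs with a lower fold of 10 or more were wider (410 bp, beside 294 bp for the others) and more often had another sperm-alone NMI nearest (15.5% against 9.72%).

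Sperm-alone NMIs were found on 1028 of the 5623 scaffolds with a merged NMI. On the 118 scaffolds with 100 or more merged NMIs, which hold 88.4% of them, the sperm-alone share was 4.99 ± 1.82% (SD over scaffolds), with 5% under 2.55% and 5% over 6.92%. Scaffold PIZI01000001v1 had 282 of 5166 (5.46%), 85 of them without a call elsewhere, and PIZI01000031v1 had 114 of 2454 (4.65%), 45 of them without a call elsewhere. The range was from 1 of 120 on PIZI01000155v1 (0.833%) to 19 of 104 on PIZI01000066v1 (18.3%).

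Scaffold PIZI01000066v1 was long and held few NMIs, and the density of NMIs was examined after this value was seen. On 104 scaffolds whose last merged NMI ended beyond 1 Mb, the median density up to that NMI was 164 merged NMIs per Mb. On the 9 scaffolds with up to 50 per Mb, 81 of 590 merged NMIs were sperm-alone (13.7%), whereas on the other 95 it was 7494 of 144113 (5.2%). The share was at most 5.67% in every denser class, and over the denser scaffolds it did not follow density (Spearman rho = -0.0254, n = 95, a description). PIZI01000066v1 and PIZI01000075v1 (18 of 74, 24.3%) gave 37 of the 81, and without them the share was 44 of 412 (10.7%). Brain-alone NMIs were 6.27% and muscle-alone NMIs 3.73% on the same 9 scaffolds, close to or below their shares of all merged NMIs. Among these 81 sperm-alone NMIs, 60.5% had no call in any other library, beside 36.4% of all sperm-alone NMIs. A call in an embryo library was found for 29.6%, beside 49.0%, and in an adult library for 17.3%, beside 31.9%. Over all merged NMIs of the 9 scaffolds, each of the 5 other tissues was present less often than in any denser class. Brain was present in 62.2% (denser classes 72.5% to 77.1%), muscle in 58.3% (74.8% to 76.0%) and day 1 in 51.4% (54.7% to 56.7%). Sperm was present in 73.4% (69.1% to 70.8%). Sperm-alone NMIs themselves lower the shares of other tissues. The part of these lower shares in the higher sperm-alone share was not tested. The class has few scaffolds, and the density itself counts the sperm-alone NMIs.

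On scaffolds with under 100 merged NMIs, 6.37% of merged NMIs were sperm-alone. All merged NMIs were sperm-alone on 214 scaffolds, 199 with 1 NMI and 15 with 2, beside 175 such scaffolds for brain alone and 114 for muscle alone. In all, 2404 merged NMIs were the only one on their scaffold. Of these, 199 were sperm-alone, 161 brain-alone and 104 muscle-alone. Seen with single libraries, 187 scaffolds carried a sperm-alone NMI and no NMI at all in any of the 6 adult somatic libraries, and they held 200 sperm-alone NMIs (2.25%), beside 288 other sperm NMIs (0.267%). The rule favours this difference, since it removes NMIs of the adult tissues. The embryos had a call at 48.5% of the 200, close to the 49.0% on other scaffolds. The remaining 51.5% had no call in any other library, beside 36.1% on other scaffolds. These scaffolds were chosen as having no adult call, so nothing is read from that last difference.

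The background under these NMIs, which the rule did not use, was spread widely. On scaffolds without an adult NMI, the sperm background at the summit had a median of 6.79 fragments in replicate 1 (quartiles 3.08 and 20.4) and 7.10 in replicate 2 (3.72 and 21.4). On other scaffolds the medians were 5.39 and 5.63 (quartiles 4.46 and 6.93, and 4.66 and 7.45). A background of 20 or more in both sperm replicates was found for 51 of the 200 (25.5%) and for 0.841% of the sperm-alone NMIs elsewhere. Other sperm NMIs on scaffolds with 1 or 2 merged NMIs and an adult NMI, 2543 in all, had upper quartiles of 7.70 and 8.38. The background is what the peak caller expected at a summit, and whether it was estimated from the library itself or from an input is not stated. Copy number was not measured here. In all, 124 sperm-alone NMIs (1.396%) had a background of 20 or more in both sperm replicates, beside 1458 other sperm NMIs (1.351%). A high background was thus about as frequent in both sets. For the 124, the lower fold had a median of 2.97, beside 4.47 for the rest of the sperm-alone NMIs. The lower −log10 q of the 124 had a median of 21.0, beside 10.4 for the rest.

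**Figure D5:**
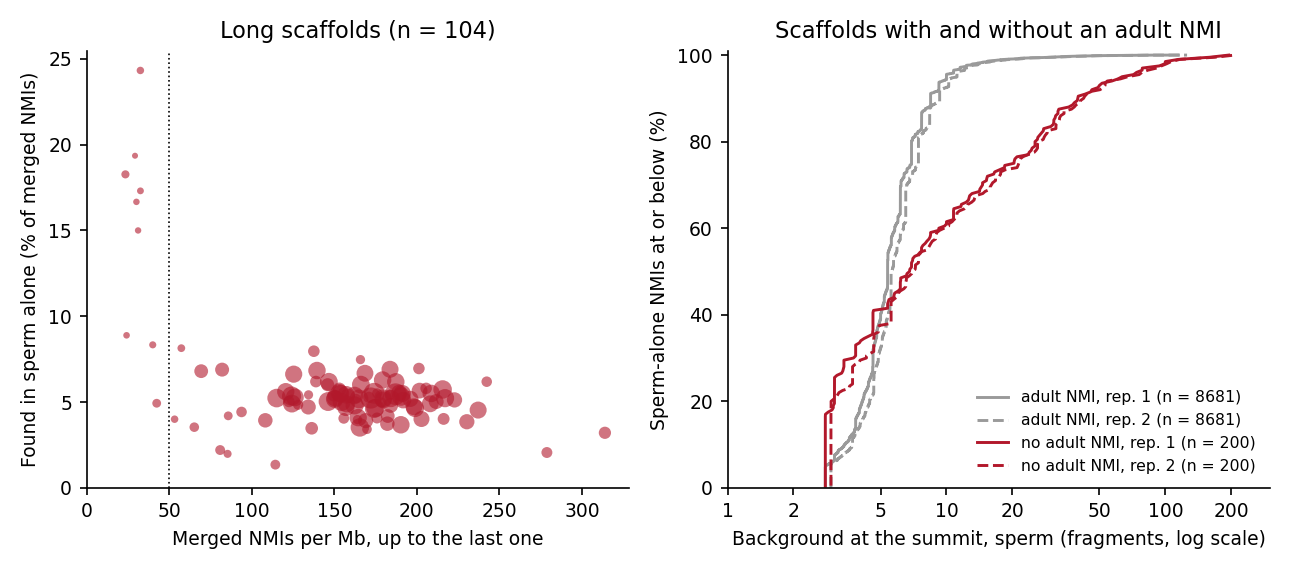
Left, percentage of merged NMIs that are sperm-alone (y axis) against merged NMIs per Mb up to the last one (x axis) on 104 long scaffolds, with point size growing with the number of merged NMIs and the dotted line at 50 per Mb. Points left of the line reach 24.3% and the others are at or below 8.14%. Right, cumulative percentage of sperm-alone NMIs (y axis) by background at the summit in fragments (x axis, log scale), for 200 on scaffolds without an adult NMI (red) and 8681 on other scaffolds (grey), solid for sperm replicate 1 and dashed for replicate 2, where the red curves reach far higher backgrounds.

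The strongest case of a high background was on PIZI01000304v1, where the only merged NMI (81817 to 82082, 266 bp) was sperm-alone and no other library had an NMI. It had 327 fragments (95% Poisson interval 293 to 364) over a background of 195 in sperm replicate 1 and 359 fragments (323 to 398) over 208 in replicate 2, the highest backgrounds of any sperm-alone NMI. The folds were low, 1.67 and 1.72, and the −log10 q values were 16.3 and 19.7. The NMI thus stood little above a very high background. Methylation, loss of the sequence and a missed call in the other tissues cannot be told apart from these lists.

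On the 15 scaffolds with 2 sperm-alone NMIs and no other, the 30 NMIs had lower folds of 2.1 to 15.9 (median 4.31) and 16 had no call elsewhere. Their background in sperm replicate 1 ran from 2.80 to 60.8, with a median of 11.9. The 3 described here were chosen by covered length after the tie was seen. PIZI01000989v1 had an NMI of 652 bp with folds of 10.2 and 8.58 and calls in 4 other libraries, and another of 239 bp with folds of 2.93 and 4.60 and none. Both NMIs of PIZI01004446v1 were without calls elsewhere, with folds of 5.03 and 4.26 for the first and 3.45 and 3.25 for the second, which had 90 and 87 fragments over backgrounds of 25.4 and 26.1. On PIZI01006143v1, 1 NMI had folds of 6.90 and 6.37 and a call in day 1 replicate 1, and the other folds of 2.49 and 3.18 and calls in day 1 replicate 1 and brain replicate 2. The 3 scaffolds therefore differed in how far the sperm signal was exclusive.

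The number of sperm-alone NMIs depended on the sperm libraries and on the length of the lists. With sperm replicate 2 alone as the sperm set it was 17966, and with sperm replicate 1 alone 9240. With the 89979 strongest NMIs of each library, 4062 were sperm-alone, with a median lower fold of 9.0, and they overlapped 946 (10.7%) of the 8881.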

How the data were processed

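BioCAP had been performed on 6 tissues with 2 replicates each. The authors trimmed reads with trimmomatic v0.36, aligned them to petMar3 with bowtie2 v2.1.0, removed duplicates with Picard v2.3.0 and called peaks with macs2 v2.1.2, one list per library. The peak caller's options, and how it used the 5 inputs (none for PBMCs), are not stated in the sources used here. The deposited lists hold positions, fold enrichment (a ratio over local background), −log10 p-values and −log10 q-values, and a score that was not used.

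Bases shared by both replicates (minimum 1 bp) made a tissue set, and the union of 6 sets, overlapping or adjacent stretches joined, made merged NMIs. A merged NMI was present in a tissue when 1 bp or more overlapped. The regions and rules were chosen with earlier results of these data known. Where a member overlapped several NMIs of a list, that with the largest −log10 q was to be used, and each member had 1 per sperm list.

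The pileup k and background b were solved from fold = (k + 1)/(b + 1) and the Poisson p-value, accepting whole k within 0.001 of the listed −log10 p. This recovered 100% of NMIs in 7 lists and at most 0.507% in the other 5, which were not used for depth. Functions were tested on simulated data. The lists hold no read counts.

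Named regions were the 5 longest sperm-alone NMIs. Among those without a call in the 10 other libraries, the 5 with the highest lower fold and the 5 with the highest lower −log10 q were named. Also named were 3 scaffolds with most merged NMIs of which all are sperm-alone, the longest run, and those on PIZI01000001v1, PIZI01000031v1 and PIZI01000304v1. PIZI01000066v1, PIZI01000075v1 and PIZI01000155v1 were named after their values were seen.

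Positions count from 1. Python 3.11.15, NumPy 2.4.6, SciPy 1.17.1, pandas and Matplotlib were used. Alternatives were other −log10 q thresholds, equally long lists, each library left out, other overlaps and joining distances, and other sets of tissues. No petMar3 genome or annotation was used, so genes, sequence and CpG content were not analysed here.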

Additional observations from a re-analysis of the deposited data

How the results depend on the processing

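The count of sperm-alone NMIs was 14466 with −log10 q of 10 or more, 4062 with equally long lists, 4788 with stretches up to 1000 bp apart joined, 15976 with embryos not asked and 3235 with no NMI in either replicate of another tissue. Those without a call elsewhere numbered 4906 and 7743 with −log10 q of 5 and 10 or more, 1115 with equally long lists, 8493 with NMIs of either replicate (by construction all of that set) and 1908 with joining up to 1000 bp. The median lower fold was 6.19 with −log10 q of 10 or more and 9.0 with equally long lists. The median gap was 1160 bp with −log10 q of 10 or more, 1588 bp with equally long lists, 1005 bp with either replicate, 2482 bp with joining up to 1000 bp and 1229 bp with no NMI in either replicate of another tissue. The share with a sperm-alone neighbour was 17.0%, 6.72%, 19.7% and 5.61% with −log10 q of 10 or more, equally long lists, embryos not asked and no NMI in either replicate, and scaffolds with sperm-alone NMIs only numbered 360, 111, 538 and 86. The −log10 q threshold was applied to every list, other tissues included. The cause of these shifts was not tested. Each library left out in turn gave 6458 to 17966 sperm-alone NMIs, 3279 to 8270 without a call elsewhere, median folds of 4.38 to 4.60, gaps of 963 to 1077 bp, shares of 7.48% to 15.1% and 143 to 398 scaffolds. The highest counts and shares and the shortest gap came without sperm replicate 1 (8270, 398, 15.1% and 963 bp). Day 1 replicate 2 left out gave the lowest count of sperm-alone NMIs, with 143 scaffolds. Of 137 values under an alternative, 107 stayed within 1.5 times for counts, within the SD between replicates for medians and shares, or in direction for the shares in replicates not used, and 30 moved. Without the values that left out a library, 40 of 65 stayed and 25 moved. Some could not move. The count without a call elsewhere is 3235 by construction with embryos not asked or with more cover asked of another tissue. The choice of regions also favours the direction of the shares in replicates not used. A count that stayed could hold other regions. With NMIs of either replicate, the 8493 sperm-alone NMIs overlapped 34.9% of the 8881. The difference in those last shares ran from 57.9 to 85.9 points and from 44.3 to 52.7 points. No paired analysis was possible because the comparison in replicates not used sets 1 sperm library against 5 others of a single replicate number, and the other results come from no test. The part of depth in the absence of an NMI was not tested.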
